A study of Mus musculus with 6 samples.

Results

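Immediate early genes are switched on within minutes of a stimulus by factors that already sit in the cell, so their induction needs no new protein. The growth factor, calcium and stress pathways end on serum response factor, its ETS partners and CREB at the promoters of these genes, and the products then act as transcription factors or as brakes on the same signal. Fos and Jun, which form AP-1, are the best known of them, and the genes described here are those outside AP-1. In neural tissue they are used as marks of recent activity, and in other tissues they are also known to rise when cells are taken out of the tissue. The set holds 10 genes, Egr1, Egr2, Egr3, Ier2, Ier3, Ier5, Nr4a1, Dusp1, Btg2 and Zfp36, and its members were all probe sets whose only gene symbol is 1 of these. These were 15 of the 45101 probe sets on the array, and each of the 10 genes had at least 1.

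The 6 libraries hold cells that were sorted from colons of the mouse strain Mapttm1(EGFP)Klt/J, which carries EGFP at the Mapt locus, the gene of the neuronal protein tau. There were 3 libraries labelled Mapt-EGFP+ colonic neurons (EGFP-positive) and 3 labelled Mapt-EGFP- myenteric cells (EGFP-negative), each pooled from 2, 4 or 6 mice, and which library had which number is not stated. All mice of both groups had received fluorescent cholera toxin subunit B in the celiac ganglion under anaesthesia and were killed 3 to 4 days later, and their age is not given. The RNA was hybridised to Affymetrix Mouse Genome 430 2.0 arrays, which give log2 values, with background at 1.00 to 1.48 as read by the 3 probe sets for TrpnX, a bacterial transcript that was not added.

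The comparison sets libraries labelled as neurons beside libraries labelled as EGFP-negative myenteric cells, and Mapt checks the labels. Mapt read 1.43, 1.32 and 5.55 in EGFP-positive replicates 1, 2 and 3 and 1.38 to 1.64 in the EGFP-negative libraries. It stood far above the background only in EGFP-positive replicate 3. In the libraries labelled EGFP-positive 1 and 2 it lay within the background, which goes against the label. What the EGFP at this locus does to the Mapt signal was not tested. The 14 pan-neuronal markers averaged 3.10, 2.95 and 6.07 against 3.25 to 3.52, so EGFP-positive replicates 1 and 2 lay below every EGFP-negative library. Fibroblast markers averaged 9.87 to 10.7 against 10.1 to 10.9, smooth muscle markers 8.34 to 10.3 against 8.65 to 10.6, and mesothelium markers 7.61 to 9.89 against 7.88 to 9.54. The libraries labelled neurons thus also held RNA that marks other cells, and their values are not those of neurons alone. Macrophage markers averaged 2.26 to 6.18 against 6.36 to 7.80, lymphocyte and mast cell markers 1.41 to 2.31 against 2.72 to 4.81, and enteric glia markers 6.65 to 8.71 against 4.74 to 6.30. The list means of these immune and glial markers did not overlap between the labels, but 0 of their genes passed (limma), and in bulk samples fewer cells of a type and less RNA per cell cannot be told apart. Between 6182 and 7621 probe sets read above a log2 value of 6, and EGFP-negative replicate 1 had the fewest. Each gene's log2 values are listed for EGFP-positive replicates 1, 2 and 3 first and for EGFP-negative replicates 1, 2 and 3 after them.

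Sites of the factors that act on these genes were looked for in their promoters. RefSeq promoters (GRCm38.p6) matched 7 of the 10 genes by symbol, in 11 windows because Egr2 has several starts, and Egr1, Egr3 and Ier2 did not match. Only the 250 bases before the start were searched, on both strands, for the CArG box bound by serum response factor, the CRE (TGACGTCA) bound by CREB, the EGR site (GCGTGGGCG or GCGGGGGCG) bound by Egr proteins, and the letters TATAAA. The CArG box was found in Egr2 and Zfp36, the CRE in Dusp1 and Btg2, the EGR site in Zfp36 and Nr4a1, and TATAAA in 0 of the 7 genes. Of all 32851 promoter windows of this length, 1.47% held a CArG box, 1.55% a CRE, 3.06% an EGR site and 12.4% TATAAA. A match describes letters only and is no evidence that a factor binds. The windows of these 4 genes with a CArG box or CRE are shown. That of Ier5, the gene of the set with the lowest p in the comparison below, is added. None of the 4 motifs was found in it. Only exact letters were counted, so near matches such as tatataag in the Ier5 window were left out. Sequences run 5′ to 3′ in the direction of the gene, and capitals mark a CArG box, CRE or EGR site.
Egr2: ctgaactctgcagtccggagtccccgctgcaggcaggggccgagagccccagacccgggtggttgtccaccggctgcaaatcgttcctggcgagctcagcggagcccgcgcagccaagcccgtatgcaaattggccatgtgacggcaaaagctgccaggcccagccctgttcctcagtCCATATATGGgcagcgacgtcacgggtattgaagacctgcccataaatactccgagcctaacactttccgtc
Zfp36: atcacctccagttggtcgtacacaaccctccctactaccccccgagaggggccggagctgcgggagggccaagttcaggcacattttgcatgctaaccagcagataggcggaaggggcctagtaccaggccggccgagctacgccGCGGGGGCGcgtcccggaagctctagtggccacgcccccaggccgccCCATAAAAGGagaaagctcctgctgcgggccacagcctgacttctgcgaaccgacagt
Dusp1: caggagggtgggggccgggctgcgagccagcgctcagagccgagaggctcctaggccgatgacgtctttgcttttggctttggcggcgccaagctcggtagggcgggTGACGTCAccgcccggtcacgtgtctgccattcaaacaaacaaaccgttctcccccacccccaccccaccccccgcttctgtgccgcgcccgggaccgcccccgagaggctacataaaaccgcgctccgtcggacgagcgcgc
Btg2: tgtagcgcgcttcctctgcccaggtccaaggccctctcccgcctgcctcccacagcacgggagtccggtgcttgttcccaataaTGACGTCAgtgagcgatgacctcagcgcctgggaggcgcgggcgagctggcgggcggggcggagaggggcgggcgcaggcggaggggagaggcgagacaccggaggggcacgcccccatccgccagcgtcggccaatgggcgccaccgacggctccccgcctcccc
Ier5: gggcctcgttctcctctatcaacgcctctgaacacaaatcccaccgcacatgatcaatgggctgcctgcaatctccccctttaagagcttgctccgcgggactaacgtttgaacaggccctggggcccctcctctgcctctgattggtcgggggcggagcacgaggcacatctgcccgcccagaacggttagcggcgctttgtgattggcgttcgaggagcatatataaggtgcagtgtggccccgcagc

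The Egr2 window (chr10:67537619-67537868, plus strand), 1 of 5 starts, holds CCATATATGG, with its first base 72 bases before the start. Zfp36 (chr7:28379229-28379478, minus strand) holds CCATAAAAGG from 58 bases before the start and, further upstream, an EGR site. The CRE of Dusp1 (chr17:26508473-26508722, minus strand) begins 143 bases before the start, and that of Btg2 (chr1:134079156-134079405, minus strand) 166 bases before it. The Ier5 window is chr1:155099637-155099886, on the minus strand. Of the genes whose groups did not overlap in the values below, Zfp36 has a CArG box and Ier5 none of these motifs, while the groups of Egr2 overlapped. Whether a motif bears on any difference between the labels was not tested, and Egr1, Egr3 and Ier2 have no window here.

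The 10 immediate early genes read above background in every library, with log2 differences from -0.78 for Ier5 to 0.15 for Egr1. Ier5 and Zfp36 were the genes whose groups did not overlap, lower in the EGFP-positive libraries. No gene passed among the 18193 tested, each represented by its brightest probe set (limma, Benjamini-Hochberg adjusted p under 0.05: 0 genes, 0%), and 893 genes (4.91%) had an unadjusted p under 0.05, among them 1 of the 10, Ier5. All EGFP-positive values lay below all EGFP-negative values in 2 of the 10 genes, against 6.04% of all genes, and above them in 0 of the 10, against 3.07% of all genes. Over the 45037 probe sets that are not controls 0 passed (0%) and 6.5% had an unadjusted p under 0.05, against 1 of the 15 of these genes. The groups did not overlap for the same genes, with 2 of the 15 probe sets lower (4.72% of all) and 0 higher (6.16% of all). The median log2 difference of the 10 genes was -0.13, beside -0.02 over all genes, with 3 genes above 0 and 7 below. None reached an absolute log2 difference of 1, as 4.16% of all genes did. From the lowest to the highest of the 6 libraries a member spanned 0.88 in the median, beside 0.79 for all genes and 1.11 for genes above the median level.

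**Figure D1:**
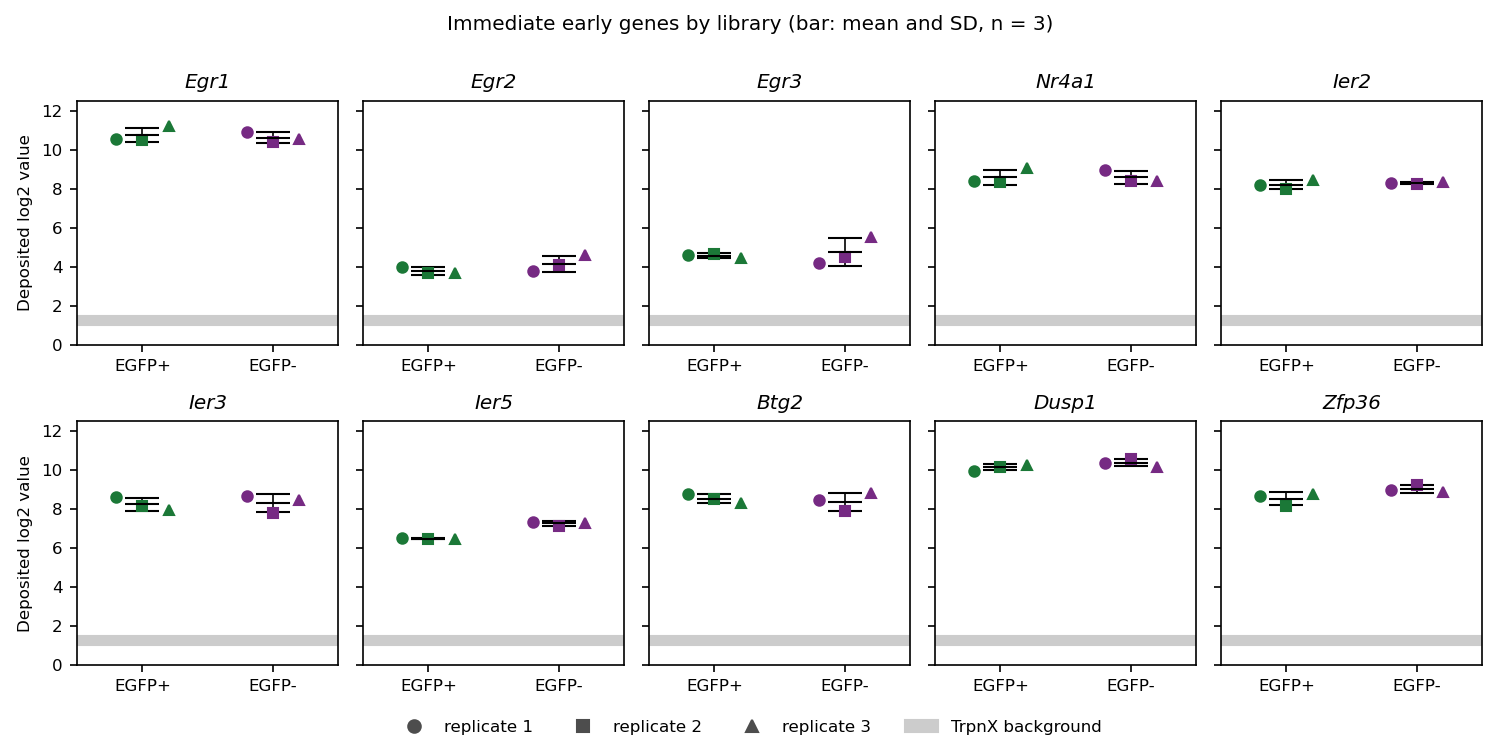
Each panel plots the deposited log2 values of 1 gene (y axis) in the 3 EGFP-positive and 3 EGFP-negative libraries, with the symbol giving the replicate, the bars the mean and SD (n = 3) and the grey band the TrpnX background of 1.00 to 1.48. All 10 genes lie above the band, and Ier5 and Zfp36 show groups that do not overlap, although Zfp36 overlaps when arrays are centred on ribosomal protein genes.

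Egr1, Egr2 and Egr3 encode zinc finger transcription factors that bind the same GC-rich site. Egr1, the most widely induced of them, read 10.57, 10.52 and 11.20 in the EGFP-positive libraries and 10.92, 10.38 and 10.53 in the EGFP-negative ones. The highest value lay in EGFP-positive replicate 3 and the next in EGFP-negative replicate 1, so the groups overlapped. The log2 difference was 0.15 (SE 0.25, 95% interval -0.47 to 0.77, limma adjusted p = 1.00). Leaving out EGFP-positive replicate 3 turned it to -0.065. Egr2, which directs myelination in Schwann cells, read 4.00, 3.69 and 3.67 against 3.79, 4.09 and 4.60. Its log2 difference was -0.37 (SE 0.24, 95% interval -0.97 to 0.22, limma adjusted p = 1.00), and -0.15 without EGFP-negative replicate 3. The second Egr2 probe set read 4.59, 3.39 and 4.05 against 2.60, 4.28 and 4.61 and gave a difference of the opposite sign, 0.18 (SE 0.61). Its lowest value was in EGFP-negative replicate 1, the library with the fewest bright probe sets. Since these probe sets differed in sign, no direction can be given for Egr2. Egr3 read 4.63, 4.65 and 4.43 against 4.21, 4.49 and 5.55, with 1 high value in EGFP-negative replicate 3. The log2 difference of -0.18 (SE 0.36, 95% interval -1.09 to 0.73) rested on that library and was 0.22 without it. The other Egr3 probe set read 1.22 to 1.51, at the background.

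Nr4a1 encodes an orphan nuclear receptor that is induced by many of the same signals. It read 8.38, 8.32 and 9.04 against 8.97, 8.38 and 8.38, a log2 difference of 0.01 (SE 0.27, 95% interval -0.68 to 0.69, limma adjusted p = 1.00). As for Egr1, the high values were those of EGFP-positive replicate 3 and EGFP-negative replicate 1, 1 library of each label. Without EGFP-positive replicate 3 the difference was -0.22, and without EGFP-negative replicate 1 it was 0.20.

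The Ier genes are named for immediate early response and do not form 1 family. Ier2, which like Ier5 encodes a nuclear protein of the IER family, varied least, at 8.19, 7.98 and 8.43 against 8.27, 8.24 and 8.35. Its 6 values spanned 0.45, and the log2 difference was -0.09 (SE 0.15, 95% interval -0.45 to 0.28, limma adjusted p = 1.00). Ier3, which encodes a regulator of cell survival and is not related to the other 2 in sequence, read 8.61, 8.15 and 7.94 against 8.65, 7.77 and 8.46. Its difference of -0.06 (SE 0.30, 95% interval -0.79 to 0.68) was smaller than the SD within either group.

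Ier5, whose product takes part in the heat shock response through HSF1, had the lowest p of the 10 genes. It read 6.51, 6.44 and 6.46 in the EGFP-positive libraries and 7.33, 7.14 and 7.30 in the EGFP-negative ones. The 3 libraries of each label lay close together, at 6.47 ± 0.04 (SD, n = 3) against 7.26 ± 0.10 (SD, n = 3), with a gap between the labels. The log2 difference was -0.78 (SE 0.11, 95% interval -1.06 to -0.51), or 1.72-fold lower in the EGFP-positive libraries. Its unadjusted p of 0.000533 ranked 7 among the 18193 genes, and adjustment over all genes took it to 0.951 (limma, Benjamini-Hochberg), which does not pass. In the 3 same-numbered pairs of libraries the differences were -0.81, -0.69 and -0.85. The gene was measured by 1 probe set at this level. Of the other 2 probe sets, 1 read 1.25 to 1.56, near the background, with a difference of -0.02. The other was dim but above the background, at 1.86 to 3.01, and its groups overlapped, with a smaller difference of the same sign, -0.32 (SE 0.36). The macrophage list, lower in the same libraries, averaged 6.18, 3.30 and 2.26 in the EGFP-positive libraries and 7.64, 7.80 and 6.36 in the others. The lymphocyte and mast cell list averaged 2.31, 1.55 and 1.41 there and 2.72, 4.27 and 4.81 in the others. The enteric glia list was higher in the EGFP-positive libraries, at 6.88, 6.65 and 8.71 against 4.74, 6.30 and 5.85. The part of any of these cells in the Ier5 difference was not tested. When arrays were centred on ribosomal protein genes the difference was -0.43, still without overlap.

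Dusp1, Btg2 and Zfp36 encode proteins that limit the response. Dusp1, a phosphatase that switches off MAP kinases, read 9.96, 10.17 and 10.28 against 10.38, 10.54 and 10.17. The groups overlapped through EGFP-negative replicate 3, and the log2 difference was -0.23 (SE 0.15, 95% interval -0.61 to 0.15, limma adjusted p = 1.00), and -0.14 without either EGFP-positive replicate 1 or EGFP-negative replicate 2. Btg2, an antiproliferative protein that promotes shortening of mRNA tails, read 8.77, 8.50 and 8.31 against 8.44, 7.89 and 8.81, a difference of 0.14 (SE 0.27, 95% interval -0.53 to 0.82). Its second probe set read 6.84, 6.69 and 6.79 against 6.73, 7.18 and 7.10 and gave -0.24 (SE 0.15), the opposite sign, so no direction can be given for Btg2.

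Zfp36 encodes tristetraprolin, which binds AU-rich elements and speeds the decay of cytokine mRNAs, and is known as a brake on macrophages. It read 8.64, 8.16 and 8.77 against 8.97, 9.24 and 8.86. Each EGFP-positive value lay below each EGFP-negative value, with a gap of less than 0.1 between EGFP-positive replicate 3 and EGFP-negative replicate 3. The means were 8.53 ± 0.32 (SD, n = 3) and 9.02 ± 0.20 (SD, n = 3), a log2 difference of -0.50 (SE 0.21, 95% interval -1.01 to 0.02) whose limma adjusted p was 1.00. The pairs gave -0.33, -1.08 and -0.09. Without EGFP-positive replicate 2 the difference was -0.32, and with arrays centred on ribosomal protein genes it was -0.14 and the groups overlapped. As for Ier5, the macrophage and lymphocyte lists were lower and the enteric glia list higher in the same 3 libraries. The part of these cells in the Zfp36 difference was not tested.

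**Figure D2:**
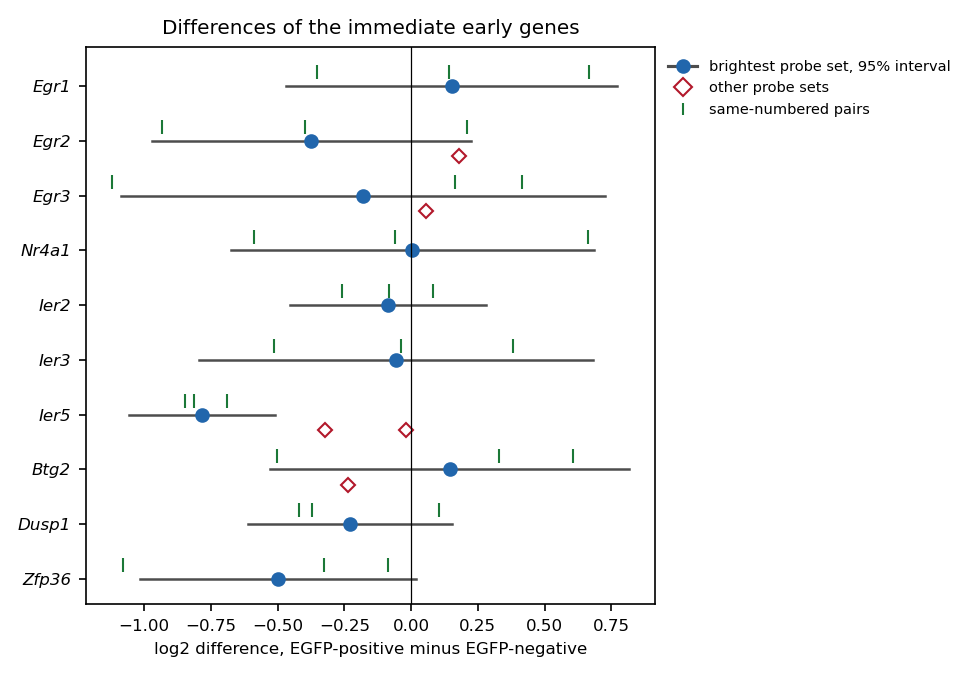
Points give the log2 difference, EGFP-positive minus EGFP-negative, of the brightest probe set of each gene, lines its 95% interval from limma, open diamonds the other probe sets of the gene, and green ticks the same-numbered pairs of libraries. The interval of Ier5, -1.06 to -0.51, leaves out 0, those of the other 9 genes hold it, and the other probe sets of Egr2, Egr3 and Btg2 lie on the other side of 0. Centring arrays on ribosomal protein genes shifts every point by 0.36 to the right, which turns Egr3, Ier2, Ier3 and Dusp1 to above 0.

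The 10 genes did not share a single order of libraries. EGFP-positive replicate 3 held the highest value for 3 of them (Egr1, Nr4a1 and Ier2), EGFP-negative replicate 3 for 3 (Egr2, Egr3 and Btg2), EGFP-negative replicate 1 for 2 (Ier3 and Ier5) and EGFP-negative replicate 2 for 2 (Dusp1 and Zfp36). The lowest value lay in EGFP-positive replicate 2 for 4 genes. The mean over the 10 genes was 7.83, 7.66 and 7.85 against 7.99, 7.82 and 8.10, a span under 0.5, while the macrophage list mean spanned more than 5 log2 units over the same libraries. Of 9086 other genes above the median level, the 5 whose values were most like that mean were Pbx3, Capzb, Rab4b, Plekho1 and Cmip, with Pearson's r of 0.97, 0.97, 0.96, 0.94 and 0.94 over the 6 libraries. They were picked as the highest among these genes, 19 of which exceeded 0.9, and all values share the same 6 arrays, so the r values are a description. Pbx3, a homeobox transcription factor, read 8.02, 7.62 and 8.32 against 8.44, 7.99 and 8.77.

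**Figure D3:**
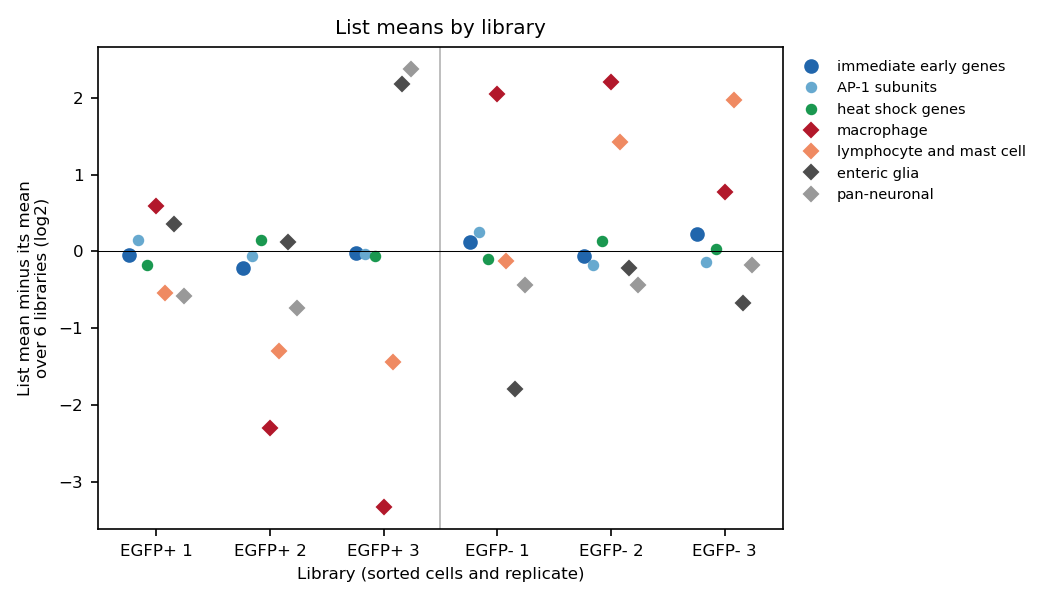
For each gene list the mean log2 value of a library, minus the mean of the list over the 6 libraries (y axis), is plotted for the 3 EGFP-positive and 3 EGFP-negative libraries, with circles for immediate early genes, AP-1 subunits and heat shock genes and diamonds for cell type markers. The immediate early genes stay near 0 in every library, at means of 7.66 to 8.10, while macrophage markers run from 2.26 to 7.80.

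Relatives of these genes from the same protein families were read in the same fit. Of 19 family relatives 18 were measured, 0 passed (limma), and their median log2 difference was 0.01, with 9 above and 9 below 0. Btg1, a relative of Btg2, read 9.12, 8.82 and 9.21 against 10.07, 9.34 and 9.89 (log2 difference -0.71, SE 0.23, limma adjusted p = 0.986). It was the 1 relative of 18 whose groups did not overlap, lower in the EGFP-positive libraries, as 6.04% of all genes were. Dusp2, a phosphatase abundant in immune cells, had the lowest difference of this list, -0.84 (SE 0.51), at 4.00, 4.34 and 2.62 against 3.98, 4.92 and 4.59. Dusp6, which acts on ERK, and Dusp4 had the highest, 0.62 (SE 0.47) and 0.59 (SE 0.41). Dusp6 was highest in EGFP-positive replicate 3, at 9.25, against 7.29 to 8.36 in the other 5 libraries. Egr4 stayed at or below the background in every library, from 0.25 to 0.77. Zfp36l1, a relative of Zfp36, read 10.03 to 10.24 in all 6 libraries, with a difference of -0.01 (SE 0.11).

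Among AP-1 subunits 12 of 12 were measured, 0 passed and the groups of 0 did not overlap, with a median difference of 0.08. Over all genes 6.04% lay entirely lower and 3.07% entirely higher in the EGFP-positive libraries. Jun read 9.20, 9.67 and 9.80 against 9.38, 8.21 and 9.53, and Jun and Mafg had the highest differences, 0.52 (SE 0.40) and 0.51 (SE 0.27). Among subunits above the median level of all genes, those of Maff and Atf3 were the lowest, -0.49 (SE 0.33) and -0.20 (SE 0.47). The 34 measured of 36 other early response genes had a median difference of -0.05, and 0 passed. Here 2 of the 34, Hes1, a Notch target, and Trib1, lay entirely higher in the EGFP-positive libraries, beside 3.07% of all genes. Entirely lower was 1, Plk3, a stress-responsive kinase, beside 6.04% of all genes. Hes1 read 5.69, 5.49 and 6.41 against 4.76, 5.37 and 5.45, a difference of 0.67 (SE 0.31), and Cebpd followed at 0.57 (SE 0.28). Tnfaip3, an inhibitor of NF-kappaB, and Pim1, a survival kinase, had the lowest, -1.15 (SE 0.58) and -0.85 (SE 0.34). Arc, an activity-induced gene of neurons, read 1.31 to 1.63, near the background in all 6 libraries. Npas4, also of this list, read 1.05, 1.04 and 2.43 against 1.29, 1.19 and 2.12, above the background in replicate 3 of each label.

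Of 25 kinases and factors upstream of these promoters, 19 were measured, 0 passed (limma), and the median difference was 0.04. The groups of 1, Creb1, did not overlap, higher in the EGFP-positive libraries, as 3.07% of all genes were. Srf, which encodes serum response factor, read 6.42, 6.09 and 7.16 against 5.80, 6.35 and 7.61, a difference of -0.03 (SE 0.53), and was highest in replicate 3 of each label. Creb1, which encodes CREB, read 7.65, 7.60 and 7.58 against 7.13, 7.46 and 7.52, with groups that did not overlap and a difference of 0.24 (SE 0.14). Among those above the median level of all genes, Mapk8 and Braf, both kinases, had the highest differences, 0.83 (SE 0.44) and 0.33 (SE 0.77), and Rps6ka3 and Crem the lowest, -0.39 (SE 0.29) and -0.33 (SE 0.30). Mapk8 and Braf each had their lowest value in EGFP-negative replicate 1, at 3.06 and 3.95.

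Heat shock genes, which like immediate early genes are known to respond to handling of tissue, were read beside them. Of 14 listed 12 were measured and 0 passed, with a median difference of -0.02. The groups of 0 did not overlap, beside 6.04% of all genes entirely lower and 3.07% entirely higher. Hspa1a, an inducible chaperone, read 8.61, 9.51 and 8.35 against 8.83, 10.09 and 8.71, so that replicate 2 was the highest of each label. Bag3 and Dnajb1 had the highest differences, 0.22 (SE 0.31) and 0.15 (SE 0.28), and Hspa1a and Dnaja1 the lowest, -0.39 (SE 0.49) and -0.26 (SE 0.20). Unsorted or undissociated tissue was not analysed here.

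**Figure D4:**
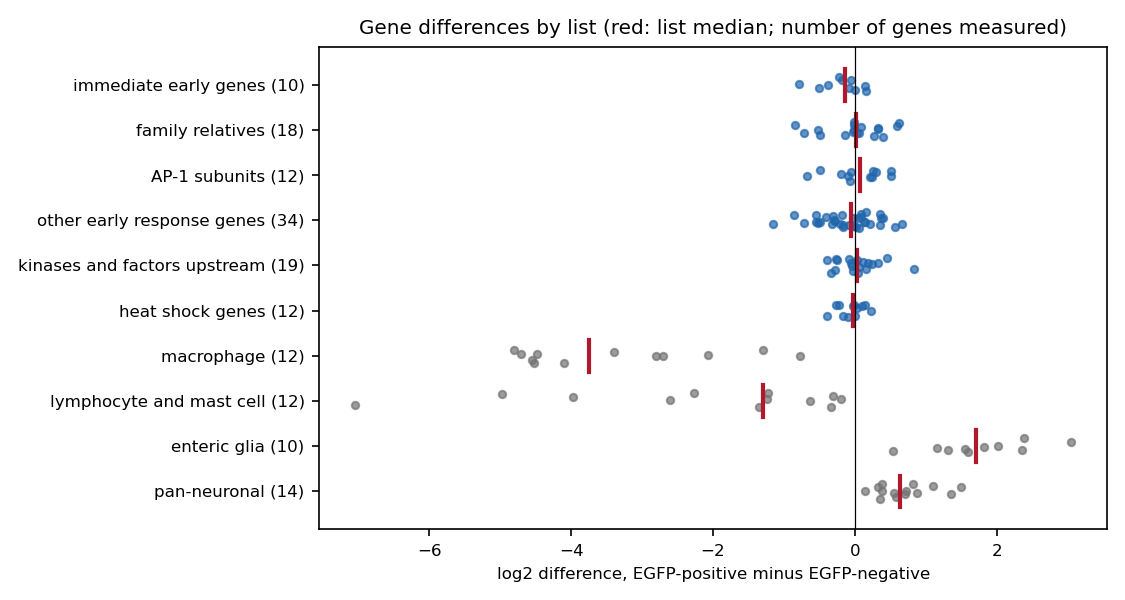
Each point is the log2 difference, EGFP-positive minus EGFP-negative (x axis), of 1 gene, in rows by list, with the list median as a red line and the number of genes measured in brackets. The 6 lists of signal-response genes (blue) have medians from -0.13 to 0.08. The cell type lists drawn (grey) have medians of -3.75 for macrophages, -1.30 for lymphocytes and mast cells, 1.71 for enteric glia and 0.64 for neurons. The neuronal list mean exceeded the EGFP-negative libraries (3.25 to 3.52) only in EGFP-positive replicate 3, at 6.07, beside 3.10 and 2.95 in replicates 1 and 2. Cell type lists not drawn have medians from -0.78 (Cajal cells) to 0.22 (mesothelium). Centring arrays on ribosomal protein genes adds 0.36 to every point and turns the medians below 0 of the blue lists to above 0.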

How the data were processed

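The authors deposited a log2 expression value for each probe set and array. The submitters' processing notes name RMA, whose version and settings are not given in the sources used here. The log2 scale was read from the values (0.05 to 15.2), and column medians near 2 are unusual for RMA, so dim values were read with caution. The number of arrays limits the precision. Symbols came from the array's platform annotation (34945 probe sets with 1 symbol, the others left out of the gene-level fit).

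Each of 18193 genes was represented by its probe set with the highest mean. The test used lmFit and eBayes of limma 3.58.1 (R 4.3.3) on 3 against 3 libraries (two-sided, Benjamini-Hochberg over all genes, threshold 0.05), and all 45037 probe sets were fitted likewise. The fit was tested on simulated data. A difference below 0 means a lower mean in EGFP-positive libraries. Since each library pools mice, p-values reflect spread between pools.

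The members, lists and tests were chosen with earlier results of these data known. Named genes were the members, the 2 highest and 2 lowest differences in each of 5 signal lists among genes above the median level, the 5 genes most like the members' mean, and Mapt. Btg1 is among them, and Egr4, Zfp36l1, Trib1, Plk3, Arc, Npas4, Srf and Creb1 were chosen after their values were seen. Of the listed genes, 15 were not analysed here. The other cell type lists, smooth muscle, fibroblast, Cajal cell, endothelium, mesothelium, epithelium and red blood cell, had median differences of -0.41, -0.53, -0.78, -0.52, 0.22, -0.11 and -0.68, with 0 members passing. Deviations from the group means correlated between same-numbered libraries at 0.36, 0.32 and 0.42 over genes, and at -0.41 to -0.01 between other numbers. The labels do not say what a number marks, so same-numbered pairs were read from the data. The main fit had no replicate block, so every SE, interval and p-value given for a gene in the Results is unpaired. With the block the limma adjusted p of Ier5 was 0.661 instead of 0.951.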

Additional observations from a re-analysis of the deposited data

How the results depend on the processing

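In none of 160 values of the 10 genes under 16 alternatives did a gene pass (lowest limma adjusted p = 0.202), and 140 kept their direction, including all those of Egr2, Ier5 and Zfp36. With the replicate block 0 genes and 0 probe sets passed, and it changed no call. The block, trended and robust variances, the limit to genes above the median level and leaving out _x_at and _s_at probe sets changed no log2 difference of the 10 genes. No direction could turn under these, so they add nothing to the count that kept it. The Egr2 difference was -0.016 with arrays centred on ribosomal protein genes, and its second probe set gave 0.18. Centring on ribosomal protein genes moved the median of all genes from -0.02 to 0.34 and that of the 10 genes from -0.13 to 0.22. It left 1 of the 10 genes entirely lower (Ier5), as 1.11% of all genes then were, and 1 entirely higher (Egr1), as 29.5% were, and turned Egr3 (0.18), Ier2 (0.27), Ier3 (0.30) and Dusp1 (0.13). Median centring turned Nr4a1 (-0.031), a second quantile normalisation (0.021) and array weights (0.14) turned Ier3, and the mean of all probe sets turned Btg2 (-0.046). Leaving out 1 library gave 0 to 2 genes and 0 to 2 probe sets that passed, the 2 without EGFP-positive replicate 1, and none of them was among the 10. It gave differences of -0.065 to 0.31 for Egr1, -0.48 to -0.15 for Egr2, -0.33 to -0.14 for Dusp1, -0.45 to 0.22 for Egr3, -0.20 to 0.024 for Ier2, -0.32 to 0.12 for Ier3, -0.22 to 0.20 for Nr4a1, -0.10 to 0.36 for Btg2, -0.84 to -0.75 for Ier5 and -0.62 to -0.32 for Zfp36. Without EGFP-positive replicates 1 and 2, in which Mapt went against the label (chosen after seeing the data, the lone library being assumed to vary like the others), Ier2 (0.14) and Btg2 (-0.073) turned, and EGFP-positive replicate 3 lay above all EGFP-negative libraries for 3 of the 10 genes (Egr1, Ier2 and Nr4a1) and below them for 3 (Egr2, Ier5 and Zfp36), beside 23.2% and 29.1% of all genes. Apart from these centrings and exclusions, the cause of each turn was not tested. Low signal limits Egr2, Egr3 and the dim Ier5 probe sets, of which only the dimmer Egr3 probe set and 1 Ier5 probe set read near the background.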
